A study of Mus musculus with 36 samples.

Results

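The 10 genes described here, Glul, Oat, Cyp2e1, Cyp1a2, Slc1a2, Axin2, Rnf43, Znrf3, Lgr5 and Tbx3, are genes of the hepatocytes around the central vein of the liver lobule and known targets or parts of canonical Wnt signaling there. They were taken by symbol as pericentral Wnt targets, by a rule that uses no measured value but was written with earlier results of these data known, and all 10 were found among the 24421 genes counted in each of 36 mouse liver RNA-seq libraries. All 10 passed the filter on low counts in every comparison. The livers came from male C57BL/6J mice, 7 weeks old at purchase and acclimated for 1 week, and every mouse had first received CDAHFD for 12 weeks, a high-fat feed without choline and with defined amino acids that causes steatohepatitis. The diet was then changed. In one experiment, the mice received a high-fat diet (HFD) with normal choline for 2 weeks together with weekly subcutaneous injections of Fc at 4.3 mg/kg (n = 10) or Fc(mML1)B3 at 5 mg/kg (n = 10). In the other, they received a standard diet for 10 days with Fc at 4.3 mg/kg (n = 9) or Fc(mML1)B3 at 5 mg/kg (n = 7) on days 1, 4 and 7. Fc is the crystallizable fragment of human IgG1, a dimer, and in Fc(mML1)B3 each chain carries in a loop a macrocyclic peptide that binds the mouse Met receptor, so that it acts as a mimetic of hepatocyte growth factor (HGF). No group without CDAHFD was compared, and the diet went together with the experiment, the injection schedule and the length of treatment, which therefore cannot be told apart.

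Hepatocytes divide their work along the axis from the portal tract to the central vein. Endothelial cells of the central vein secrete Wnt2, Wnt9b and the R-spondin Rspo3, and the hepatocytes next to them answer through Frizzled and Lrp receptors, β-catenin and TCF/LEF factors. The answer includes enzymes and transporters of glutamine and xenobiotic metabolism and a set of feedback genes that act on the Wnt receptors themselves. Periportal hepatocytes carry urea synthesis and gluconeogenesis instead.

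Among the 10 genes, Glul encodes glutamine synthetase, Oat ornithine aminotransferase and Slc1a2 a glutamate transporter. Cyp2e1 and Cyp1a2 are cytochrome P450 enzymes of xenobiotic metabolism. Axin2 is a scaffold of the β-catenin destruction complex, Rnf43 and Znrf3 are ubiquitin ligases that remove Frizzled from the cell surface, Lgr5 is an R-spondin receptor, and Tbx3 is a transcription factor. In mm10 (GRCm38), Glul lies at chr1:153899929-153909723 on the plus strand, Slc1a2 at chr2:102658683-102790784 (plus), Tbx3 at chr5:119670862-119684724 (plus), Oat at chr7:132557475-132576398 (minus) and Cyp2e1 at chr7:140763832-140774977 (plus). Cyp1a2 lies at chr9:57676937-57683655 (minus), Lgr5 at chr10:115450314-115587780 (minus), Znrf3 at chr11:5276329-5444847 (minus), Rnf43 at chr11:87663087-87735539 (plus) and Axin2 at chr11:108920349-108950781 (plus). All values are reads summed over the exons. Glul shares 108 exonic bases with Mir8114 on the same strand, and the others share none with another gene.

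Reference sequence upstream of the start was available for 7 of the 10 genes in RefSeq (GRCm38.p6) and not for Znrf3, Lgr5 and Tbx3. The 250 bases before the start are shown for Glul, Slc1a2, Cyp2e1 and Cyp1a2, because these 4 genes were the lowest relative to their group median in the pair of Fc mice described below. Capitals mark a TCF/LEF word, which was searched in the form CTTTGAA, then as CTTTGAT, then as CTTTGTA and then as CTTTGTT, each on both strands, with overlapping matches allowed and a window counted once.
Glul, chr1:153899679-153899928, plus strand: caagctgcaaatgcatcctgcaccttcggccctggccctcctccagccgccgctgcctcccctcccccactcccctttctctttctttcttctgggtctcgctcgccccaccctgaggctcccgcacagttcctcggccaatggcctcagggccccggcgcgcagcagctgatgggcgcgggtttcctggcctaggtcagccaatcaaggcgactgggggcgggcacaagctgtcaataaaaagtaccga
Slc1a2, chr2:102706188-102706437, plus strand: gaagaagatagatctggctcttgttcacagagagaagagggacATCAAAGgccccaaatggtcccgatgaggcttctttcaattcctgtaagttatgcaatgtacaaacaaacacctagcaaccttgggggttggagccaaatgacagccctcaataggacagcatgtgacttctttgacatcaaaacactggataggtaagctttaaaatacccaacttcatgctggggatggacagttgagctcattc
Cyp2e1, chr7:140763569-140763818, plus strand: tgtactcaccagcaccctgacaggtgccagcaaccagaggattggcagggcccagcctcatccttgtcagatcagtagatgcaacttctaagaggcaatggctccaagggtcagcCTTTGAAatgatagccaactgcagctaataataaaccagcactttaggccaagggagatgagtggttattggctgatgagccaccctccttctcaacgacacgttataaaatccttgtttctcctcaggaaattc
Cyp1a2, chr9:57683656-57683905, minus strand: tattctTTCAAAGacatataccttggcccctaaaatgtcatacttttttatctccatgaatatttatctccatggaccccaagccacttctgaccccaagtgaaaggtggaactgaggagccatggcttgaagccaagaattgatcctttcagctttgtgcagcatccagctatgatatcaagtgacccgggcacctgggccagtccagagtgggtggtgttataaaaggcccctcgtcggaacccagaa
The word was found once each upstream of Slc1a2, Cyp2e1 and Cyp1a2, with its first base at -207, -135 and -244 from the start, and not in the windows of Glul, Oat, Axin2 or in either of the windows of Rnf43. Over all 32851 upstream windows of that table, 14.8% held such a word. The window of Slc1a2 lies inside the gene as annotated for the counts, since RefSeq places this start downstream of the gene's first annotated base. A match is a description of the letters, and no binding was measured.

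Library totals ran from 14949035 to 28466853 reads, with both ends of a fragment counted singly. Levels are in CPM, the reads of a gene relative to all reads of its library, with library sizes scaled by TMM factors. Albumin was between 56994 and 119897 CPM in all 36 livers, and the 11 general hepatocyte markers found had reads in each group. The labels do not say more of the mice than their group and number, so each library was taken as 1 mouse and p-values measure the spread between these libraries.

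Levels per kilobase of exon, the scale on which genes can be compared, fell into a steep order that was much the same in all groups. Cyp2e1 was the highest, at 4484 ± 1683 CPM per kb (SD, n = 10) in Fc mice under the HFD, and the lowest Cyp2e1 value lay above the highest Glul value in every group. Glul followed at 696 ± 275 CPM per kb, then Oat at 387 ± 112 and Cyp1a2 at 268 ± 94.6. Oat and Cyp1a2 overlapped in range in all 4 groups, and Oat was the higher of the pair in 7 to 10 of the mice of a group. Slc1a2 was lower, at 17.1 ± 5.73 CPM per kb, although its level before division by its 12068 exonic bases was 206 ± 69.2 CPM.

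The feedback genes and the transcription factor formed the lower end. In Fc mice under the HFD, Tbx3 was at 6.21 ± 2.17 and Rnf43 at 5.76 ± 1.45 CPM per kb, and Tbx3 was the higher in 6 of 10 mice, so that the order of these 2 neighbors was not fixed. Axin2 at 1.79 ± 0.60, Lgr5 at 1.57 ± 0.42 and Znrf3 at 1.40 ± 0.33 overlapped, and their order changed between groups. These 3 genes rested on few reads, with medians over the mice of a group from 146 to 205 reads for Axin2, 207 to 368 for Znrf3 and 116 to 236 for Lgr5, whereas Cyp2e1 had group medians from 145833 to 188641 reads.

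**Figure D1:**
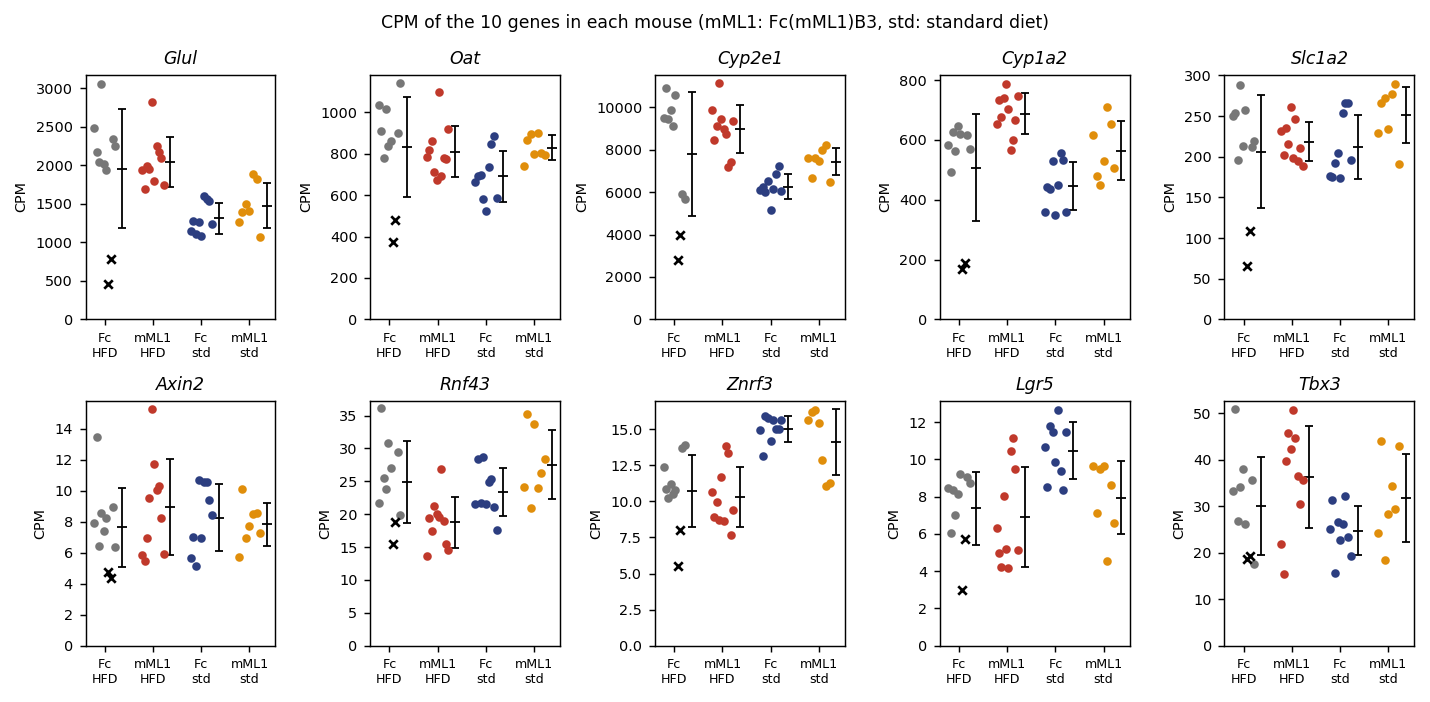
CPM of the 10 genes in each mouse, with 1 panel per gene and a linear axis from 0. Points are mice in the order of their numbers, crosses are Fc mice 7 and 8 under the HFD, and the bar beside each group is its mean ± SD. The crosses lie at the bottom of their group for the metabolic genes, and for Glul all Fc mice on the standard diet lie below the other 8 Fc mice under the HFD.

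Mice 7 and 8 of the Fc group under the HFD stood apart from the other 8 mice of that group and are described before the comparisons. Glul was at 462 CPM in mouse 7 and 785 CPM in mouse 8, against 1939 to 3047 CPM in the other 8 Fc mice and at least 1691 CPM in the 10 Fc(mML1)B3 mice under the same diet. Cyp1a2 was at 167 and 187 CPM, against 493 to 646 CPM in the others. Cyp2e1 was at 2788 and 3984 CPM, against 5699 to 10932 CPM. Both mice were thus below every other mouse of their group for these enzymes, and Cyp2e1 was also low in Fc mice 9 and 10, at 5920 and 5699 CPM.

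Slc1a2 was at 66.0 and 108 CPM in mice 7 and 8, against 196 to 288 CPM in the other 8. Oat was at 373 and 480.5 CPM, against 778 to 1144 CPM. The receptor Lgr5 was at 3.00 and 5.72 CPM, against 6.06 to 9.20 CPM. Axin2, Rnf43 and Znrf3 were also below the range of the others, at 4.75 and 4.36, 15.4 and 18.8, and 5.50 and 8.02 CPM in mice 7 and 8. Only Tbx3, at 18.6 and 19.2 CPM, lay inside the range of the other 8, of which Fc mouse 10 was the lowest at 17.6 CPM. Both mice were below the other 8 for 9 of the 10 genes. The share of all 13299 genes tested under the HFD was 7.55%, but the pair is described because its values of these genes were low, so the count is a description of these mice and supports nothing further.

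The other pericentral genes showed the same split in these mice. Of 26 other pericentral hepatocyte genes tested, 17 were below the other 8 Fc mice in both mice 7 and 8, and 1, Por, was above. Among those below, Gulo, an enzyme of ascorbate synthesis, was at 335 and 413 CPM against 596 to 730 CPM, and Rgn (regucalcin) was at 480 and 644 CPM against 1282 to 1567 CPM. Nr1i3, the xenobiotic receptor CAR, was at 37.4 and 52.0 CPM against 98.6 to 138 CPM. Cyp2c50 was at 93.7 and 95.8 CPM against 416 to 653 CPM, although reads can be lost or split between near-identical members of the Cyp2c family because reads mapping to several places were left out.

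Periportal genes went the other way in the same mice. Of 17 periportal genes tested, 9 were above the other 8 Fc mice in both and 1, Pigr, was below, where 8.74% of all genes were above. Sds, serine dehydratase, was at 450 and 425 CPM against 73.1 to 240 CPM, and Gls2, the liver glutaminase, at 495 and 495 CPM against 156 to 391 CPM (both chosen after their values were seen). Of 11 general hepatocyte genes, none was below and 1, Ahsg, was above, and albumin was within the range of the other 8. In a bulk liver sample, fewer pericentral hepatocytes and less RNA of these genes per hepatocyte cannot be told apart.

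Other readings differed in these mice as well. S100a8, a neutrophil gene, was at 22.3 and 20.2 CPM against 1.60 to 5.95 CPM. The summed level of 8 macrophage markers was 1430 CPM in mouse 7 and 1532 CPM in mouse 8, the latter the highest of the group, in which the lowest value was 597 and the median 854 CPM. No macrophage marker was below the other 8 mice and 2 of 8 were above. The summed level of 10 stellate cell and fibroblast markers, 1218 and 1205 CPM, was near the group median of 1184 CPM. Such sums, here and below, give most weight to abundant genes. In this group Gpnmb of the macrophage list had a mean of 505 CPM and Dcn of the stellate cell and fibroblast list 558 CPM. Of the central vein endothelial genes, 2 of 6 were below the others in both mice, namely Cdh13 and the ligand Wnt2, which was at 1.44 and 2.01 CPM against 2.48 to 3.31 CPM, a level of few reads. Rspo3, at 9.00 and 10.4 CPM, and Wnt9b, at 1.25 and 1.06 CPM, were within range. The part of these readings in the low pericentral levels was not tested. Because the values of mice 7 and 8 had been seen, the comparisons that use the Fc group under the HFD are given with all mice, and the main values of the 10 genes again without this pair. Leaving out mice that were low for some of these genes raises the mean of their group and narrows its spread for the same genes, so the p-values without the pair depend on that choice and are given as a description.

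**Figure D2:**
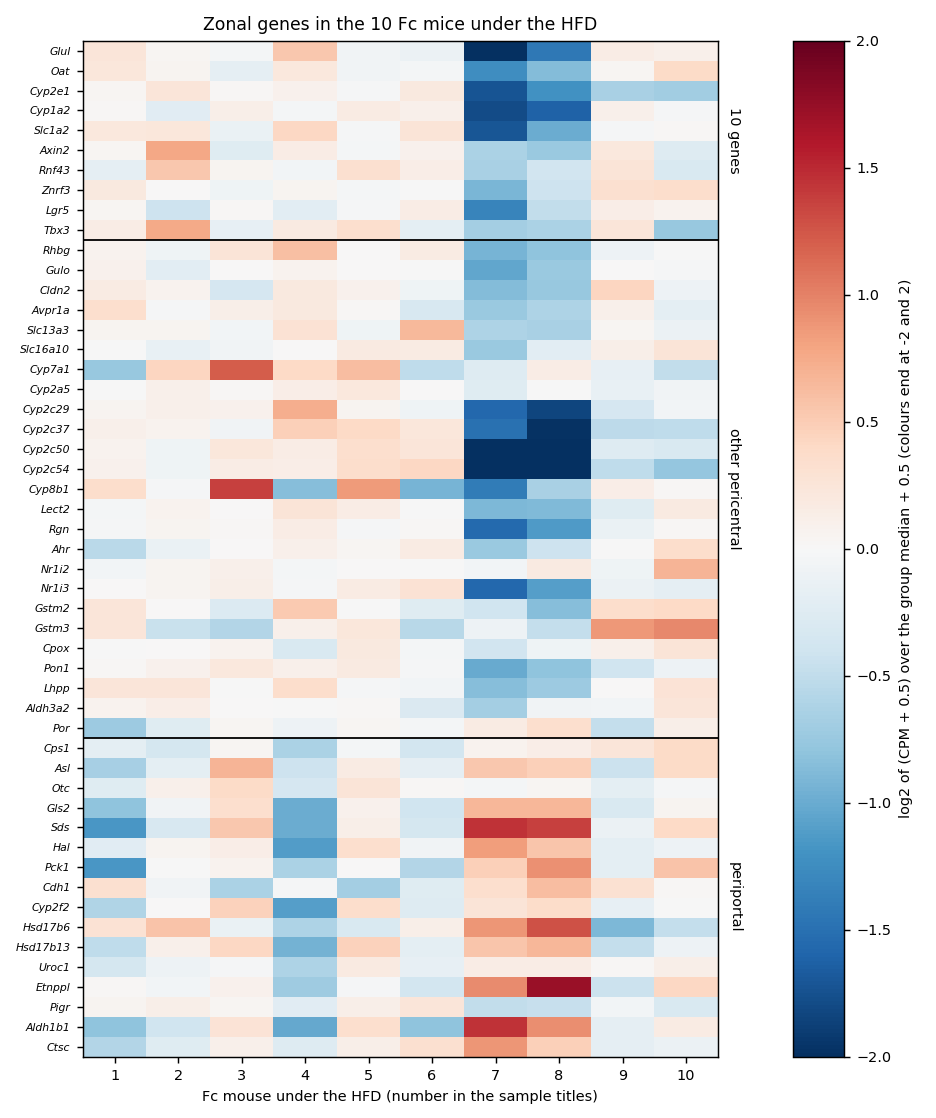
Levels of the 10 genes, 25 other pericentral genes and 16 periportal genes (rows) in the 10 Fc mice under the HFD (columns), as log2 of CPM + 0.5 over the group median + 0.5. Blue is below and red above the median, and the columns of mice 7 and 8 are blue through most of the first and second blocks and red through most of the third, with Glul at -2.19 and -1.42.

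The first comparison was Fc(mML1)B3 against Fc under the HFD, which asks what the HGF mimetic changed in the liver during continued high-fat feeding. None of the 10 genes passed the threshold (edgeR quasi-likelihood F-test, Benjamini-Hochberg adjusted p below 0.05), where 14.8% of 13299 genes did, 8.14% higher and 6.68% lower. At an unadjusted p below 0.05 there were 2 of 10, where 3966 of all 13299 genes were. DESeq2 and limma-voom each called 1 of the 10, where they called 2287 and 3039 of the 13299 genes. No gene separated the groups without overlap, compared with 0.910% of all genes. The log2 fold changes ran from -0.40 to 0.45 with a median of 0.09, beside a median of -0.01 over all genes. Negative values were found for 7 of 8 macrophage markers (median -0.33), 7 of 10 stellate cell and fibroblast markers (-0.23) and 4 of 7 cholangiocyte markers, none called. Of 11 general hepatocyte genes, 10 were positive (median 0.20) and 1, Hnf4a, was called higher. Without Fc mice 7 and 8, the 3 medians were -0.15, -0.15 and 0.17. Their part in the result was not tested.

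The 2 genes with the largest differences were Rnf43 and Cyp1a2. Rnf43 ranged from 15.4 to 36.1 CPM (median 24.6) with Fc and from 13.7 to 26.9 CPM (median 19.2) with Fc(mML1)B3, and 1 of 10 Fc(mML1)B3 mice was above the Fc median. Its log2 fold change was -0.40 ± 0.14 (SE) with an adjusted p of 0.051 (edgeR). It was past the threshold when the 36 libraries were fitted together (-0.41, adjusted p = 0.017), with DESeq2 (-0.39, adjusted p = 0.036), and when any 1 of Fc mice 7, 8 and 10 or Fc(mML1)B3 mice 5 and 7 was left out (log2 fold changes of -0.45, -0.43, -0.42, -0.41 and -0.47). Rnf43 therefore lay at the threshold.

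Cyp1a2 ranged from 167 to 646 CPM (median 576) with Fc and from 568 to 788 CPM (median 689) with Fc(mML1)B3, and 9 of 10 Fc(mML1)B3 mice were above the Fc median. Its log2 fold change was 0.45 ± 0.19 with an adjusted p of 0.12. The spread within the Fc group was large, with a coefficient of variation of 35.3%, compared with 9.99% in the Fc(mML1)B3 group. Glul (39.5% and 15.9%), Cyp2e1 (37.5% and 12.7%) and Slc1a2 (33.5% and 10.96%) also varied more in the Fc group, whereas Axin2 (33.5% and 34.7%) and Lgr5 (26.5% and 38.5%) did not. In the 8 Fc mice other than 7 and 8, the coefficient was 8.24% for Cyp1a2, 15.6% for Glul, 22.4% for Cyp2e1 and 13.1% for Slc1a2.

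Without Fc mice 7 and 8, 2 of the 10 genes passed the threshold, where 13.7% of all genes did, 7.44% higher and 6.24% lower. Rnf43 was lower with Fc(mML1)B3, by a log2 fold change of -0.50 ± 0.12 (edgeR adjusted p = 0.0081). Cyp1a2 was higher by 0.24 ± 0.08 (adjusted p = 0.046). Its value with all mice had been 0.45. Glul, the classical marker of the innermost pericentral hepatocytes, was at 0.08 ± 0.22 with all mice and at -0.15 ± 0.10 without the pair (adjusted p = 0.39), and Cyp2e1 at 0.21 ± 0.20 and 0.03 ± 0.13 (adjusted p = 0.92). For these 2 genes and for Slc1a2 (0.09 and -0.10), Lgr5 (-0.08 and -0.22), Znrf3 (-0.05 and -0.17), Oat (-0.03 and -0.19), Axin2 (0.23 and 0.10) and Tbx3 (0.28 and 0.16), neither fit gave a call.

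The files of the Fc(mML1)B3 mice under the HFD were numbered in 2 series, and all Fc files in another. Against all 10 Fc mice, Rnf43 was at -0.44 (adjusted p = 0.14) in the 4 Fc(mML1)B3 mice of one series and at -0.36 (adjusted p = 0.17) in the 6 of the other, and Cyp1a2 was at 0.50 and 0.43. Since no series held both proteins, no value within a series could be had.

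Clock genes moved with the protein under this diet, and all 11 clock genes tested were called, 4 higher and 7 lower. Arntl, a core activator of the clock, was at 1.20 ± 0.51 CPM with Fc and 18.6 ± 8.15 CPM with Fc(mML1)B3 (log2 fold change 3.98, edgeR adjusted p = 1.1e-08). Dbp, an output factor, was at 100.2 ± 20.5 and 9.88 ± 7.88 CPM (log2 fold change -3.31, adjusted p = 5.4e-07). Under the standard diet, 10 of 12 clock genes were called, 6 higher and 4 lower, with Nr1d1 lower by a log2 fold change of -1.68. There Arntl was at 3.96 ± 1.32 CPM with Fc and 1.91 ± 1.00 CPM with Fc(mML1)B3, the other direction from the HFD. Dbp was at 68.7 ± 16.9 and 75.9 ± 22.7 CPM. Part of the pericentral program is known to follow the time of day, and the part of the clock in the results below and above was not tested. The time of day at which each group was sampled is not given in the sources used here, so a difference in sampling time and an effect of the protein cannot be told apart in these values.

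Of the other pericentral genes, 3 of 26 were called under the HFD, all higher with Fc(mML1)B3, where 8.14% of all genes were higher and 6.68% lower. Avpr1a, a vasopressin receptor, was at 12.3 ± 2.90 CPM with Fc and 33.03 ± 10.5 CPM with Fc(mML1)B3 (log2 fold change 1.43, edgeR adjusted p = 8.9e-06). Cpox, an enzyme of heme synthesis, was higher by 0.67 and Rhbg, an ammonium transporter, by 0.44. Of 17 periportal genes, 1 was called, the urea cycle enzyme Asl, higher by 0.62. With that pair left out the calls were 4 of 26 and 2 of 17, all higher, where 13.7% of all genes were called. Among 8 Wnt ligands and secretion genes tested, Wnt5b was higher (12.1 ± 2.05 and 17.0 ± 2.21 CPM, log2 fold change 0.50) and Wnt4 lower (11.4 ± 4.03 and 6.50 ± 4.15 CPM, -0.80). Among 10 receptors, Lrp5 (0.48) and Fzd7 (0.39) were called higher, but without Fc mice 7 and 8 the only receptor called was a lower one. Of 8 further Wnt targets, Tnfrsf19 (-0.80) and Ccnd1 (-0.72), which encodes cyclin D1, were lower. No Wnt inhibitor of 7 was called, and 1 of 15 intracellular components, Dvl1, was higher by 0.22, a list with no call without Fc mice 7 and 8.

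Under the standard diet, Fc(mML1)B3 against Fc gave 3 calls among the 10 genes, where 16.1% of 13570 genes passed the same threshold, 8.56% higher and 7.55% lower. Cyp2e1 and Cyp1a2 were higher and Lgr5 was lower. The median log2 fold change of the 10 genes was 0.24, beside -0.01 for all genes, and 7 of the 10 were positive. Beside them, all 10 stellate cell and fibroblast markers had negative log2 fold changes (median -0.26, 2 called lower), as did all 7 cholangiocyte markers (median -0.25, 1 called lower), and of 8 macrophage markers 1, Gpnmb, was called lower. Their part in the result was not tested. No gene separated the groups, compared with 2.93% of all genes.

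Cyp2e1 ranged from 5137 to 7231 CPM (median 6137) with Fc and from 6484 to 8226 CPM (median 7592) with Fc(mML1)B3. All 7 Fc(mML1)B3 mice were above the Fc median, and the ranges overlapped. The log2 fold change was 0.25 ± 0.07 (edgeR adjusted p = 0.018), and this call was kept with any single mouse left out. In 1 fit of all 36 libraries the estimate was 0.25 and not called (adjusted p = 0.47), and none of the 3 genes was called in that fit. Cyp1a2 ranged from 349 to 555 CPM (median 443) with Fc and from 450 to 710 CPM (median 531) with Fc(mML1)B3, again with all 7 above the Fc median. Its log2 fold change was 0.34 ± 0.11 (adjusted p = 0.046).

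Lgr5 ranged from 8.34 to 12.7 CPM (median 10.7) with Fc and from 4.57 to 9.67 CPM (median 8.61) with Fc(mML1)B3, where none of 7 mice was above the Fc median. Its log2 fold change was -0.40 ± 0.13 (edgeR adjusted p = 0.047). The calls of Cyp1a2 and Lgr5 were close to the threshold, and that of Lgr5 was lost with no filter on low counts (-0.39). Cyp1a2 lost its call without Fc mouse 1, 2, 3, 5, 6 or 9 or Fc(mML1)B3 mouse 1, 4, 5 or 6, with log2 fold changes from 0.27 to 0.35 and adjusted p from 0.060 to 0.11. Lgr5 lost its call without Fc mouse 1, 3, 4, 5, 6 or 9 or Fc(mML1)B3 mouse 2, 5, 6 or 7, with log2 fold changes from -0.42 to -0.30 and adjusted p from 0.053 to 0.098.

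Oat, which was not called, was at 690.3 ± 121 CPM with Fc and 829 ± 60.3 CPM with Fc(mML1)B3, with a log2 fold change of 0.26 ± 0.09 (edgeR adjusted p = 0.056), and all 7 Fc(mML1)B3 mice were above the Fc median. DESeq2 (0.26, adjusted p = 0.031) and limma-voom (0.29, adjusted p = 0.021) called it. It passed the threshold of the edgeR test without Fc mouse 7 (0.30), Fc mouse 8 (0.31) or Fc(mML1)B3 mouse 1 (0.29). Tbx3 was at 24.7 ± 5.25 and 31.7 ± 9.47 CPM (0.36 ± 0.16, adjusted p = 0.15), and was past the threshold without Fc(mML1)B3 mouse 3 (0.45). Slc1a2 at 0.25 ± 0.10 (called by limma-voom, 0.28, adjusted p = 0.0499), Rnf43 at 0.23 ± 0.11 and Glul at 0.17 ± 0.11 did not pass. Axin2 at -0.08 ± 0.15 and Znrf3 at -0.09 ± 0.08 were the closest to 0.

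All Fc(mML1)B3 files under the standard diet belonged to the same numbered series as those of Fc mice 6 to 9, whereas Fc mice 1 to 5 were in another. Against Fc mice 6 to 9 alone, none of the 10 genes was called. Cyp2e1 was then at 0.18 (adjusted p = 0.20), Cyp1a2 at 0.25 (adjusted p = 0.29), Lgr5 at -0.40 (adjusted p = 0.20) and Oat at 0.11 (adjusted p = 0.52). In this subset 942 genes were called, compared with 2186 with all Fc mice.

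Among the 26 other pericentral genes, 7 were higher and 1 lower with Fc(mML1)B3 under the standard diet, where 8.56% of all genes were higher and 7.55% lower. Cyp7a1, the rate-limiting enzyme of bile acid synthesis, was at 91.4 ± 25.1 and 302 ± 104 CPM (log2 fold change 1.72, edgeR adjusted p = 3.8e-06). Por, the reductase that serves the cytochrome P450 enzymes, was at 251 ± 54.9 and 556 ± 63.7 CPM (1.14, adjusted p = 1.6e-06), and Nr1i3 was higher by 0.62. The gene that was lower was Avpr1a, at 24.5 ± 3.63 and 12.8 ± 1.95 CPM (-0.94), which had been higher with Fc(mML1)B3 under the HFD. Of 17 periportal genes, 6 were higher, among them Asl (0.62), and 2 were lower, Cdh1 (-0.36) and Hal (-0.47), so that calls in both directions were found on both sides of the lobule. Of 9 Wnt ligands and secretion genes, Wnt5b was the 1 called, higher by 1.27. Of 10 receptors, Fzd4 was higher by 0.55 and Lrp5 lower, at -0.48. Of 15 intracellular components Dvl1 was called, higher by 0.14, of 6 inhibitors Sfrp1, lower, at -0.79, and of 8 further Wnt targets none.

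**Figure D3:**
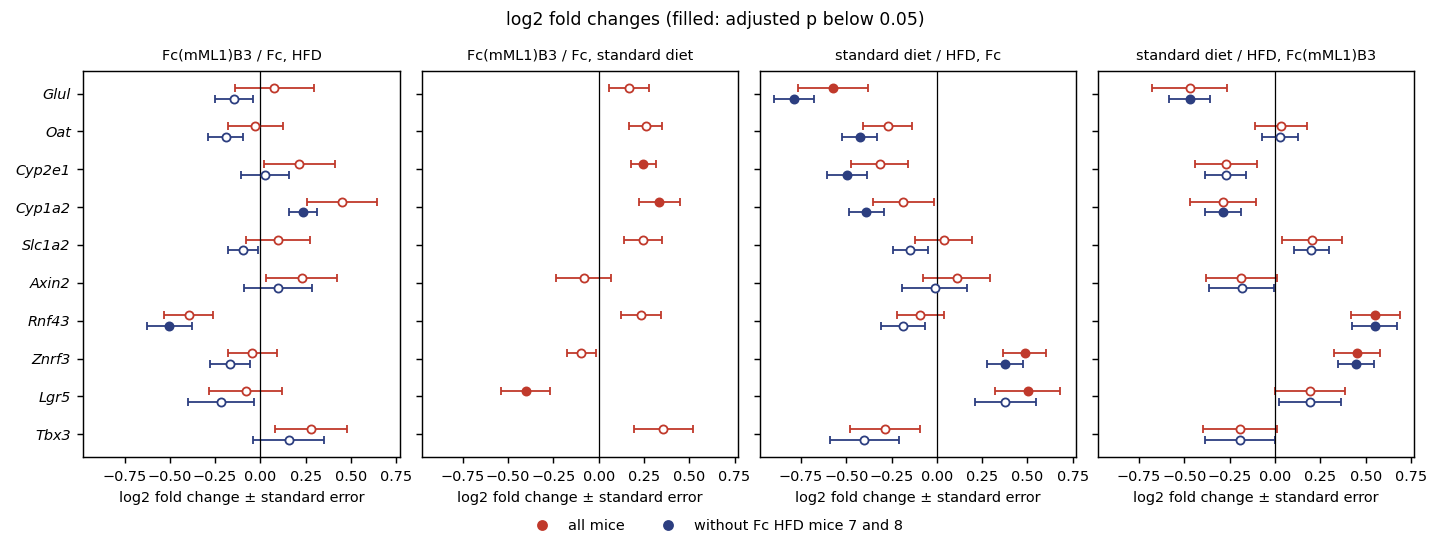
log2 fold changes ± standard error of the 10 genes in the 4 comparisons, with all mice (red) and without Fc mice 7 and 8 under the HFD (blue), where filled points are past an adjusted p of 0.05. The blue error bars are shorter in every panel that has them, and in the comparison of diets in Fc mice Glul is called with all mice and without the pair, and Oat, Cyp2e1 and Cyp1a2 without it.

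Whether the protein acted differently under the 2 diets was tested as an interaction in a fit of all 36 libraries, taking the effect under the standard diet minus that under the HFD. Of the 10 genes, only Rnf43 was called, where 9.06% of 14105 genes were, 4.66% higher and 4.40% lower. The interaction of Rnf43 was 0.64 ± 0.19 on the log2 scale (edgeR adjusted p = 0.023), with a mean that was lower with Fc(mML1)B3 than with Fc under the HFD (18.7 ± 3.82 and 24.9 ± 6.23 CPM) and higher under the standard diet (27.5 ± 5.29 and 23.4 ± 3.65 CPM). In the separate fit of each diet neither effect was called, whereas the fit of 36 libraries behind the interaction called the one under the HFD. Without Fc mice 7 and 8 the interaction was 0.74 ± 0.17 (adjusted p = 0.0038). The call was lost without Fc(mML1)B3 mouse 2 (0.56, adjusted p = 0.063) or mouse 4 (0.57, adjusted p = 0.059) of the standard diet. These 2 mice had the highest Rnf43 levels of their group, 35.2 and 33.7 CPM.

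Without Fc mice 7 and 8, Oat was called as well, with an interaction of 0.45 ± 0.14 (edgeR adjusted p = 0.028), compared with 0.30 ± 0.20 with all mice. The interactions of Glul (0.10 and 0.32) and Slc1a2 (0.17 and 0.35) were called with neither set of mice. Of all genes, 10.0% were called in that fit, 4.80% with a higher and 5.24% with a lower value. The other pericentral genes gave 5 interactions of 26, among them Avpr1a (-2.36), Por (1.34), Cyp7a1 (2.03) and Cyp2a5 (1.30), and no periportal gene of 17 was called. With the pair left out these counts were 7 of 26 and 1 of 17. All 12 clock genes had an interaction, with Arntl at -5.02.

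The diets were compared within each protein, with the standard diet set against the HFD. These comparisons share their groups with those of the proteins. In Fc mice, 3 of the 10 genes were called, where 47.9% of 14105 genes were, 23.3% higher and 24.6% lower. Glul was lower under the standard diet, and Znrf3 and Lgr5 were higher. None of the 10 separated the groups, compared with 9.42% of all genes.

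Glul ranged from 462 to 3047 CPM (median 2105) under the HFD and from 1081 to 1605 CPM (median 1257) under the standard diet. None of the 9 mice on the standard diet was above the HFD median, and only mice 7 and 8 of the HFD group fell below the range of the standard diet. Its log2 fold change was -0.57 ± 0.19 (edgeR adjusted p = 0.013). Without mice 7 and 8 it was -0.79 ± 0.11 (adjusted p = 3.7e-07). In Fc(mML1)B3 mice, Glul ranged from 1691 to 2813 CPM (median 1972) under the HFD and from 1070.0 to 1884 CPM (median 1400) under the standard diet, and the log2 fold change of -0.47 ± 0.21 was not called (edgeR adjusted p = 0.067). DESeq2 (-0.49, adjusted p = 0.035), limma-voom (-0.44, adjusted p = 0.031) and upper-quartile factors (-0.56, adjusted p = 0.028) each called it, so that Glul lay near the threshold there. With mice 7 and 8 out of the shared fit, the estimate was -0.47 ± 0.11 and was called (adjusted p = 9.3e-04), as it was without Fc(mML1)B3 mouse 5 of the standard diet (-0.54, adjusted p = 0.049).

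The other metabolic genes were not called in Fc mice with all mice in the edgeR test, although with the same mice limma-voom and upper-quartile factors called Oat (-0.31 and -0.36) and Cyp2e1 (-0.32 and -0.40). The values without the pair follow as a description, since the pair was left out after its low values of these genes had been seen. Oat was at -0.27 ± 0.13 with all mice and at -0.43 ± 0.10 without the pair (edgeR adjusted p = 5.5e-04). Cyp2e1 was at -0.32 ± 0.16 and -0.50 ± 0.11 (adjusted p = 4.0e-04), and Cyp1a2 at -0.18 ± 0.17 and -0.39 ± 0.10 (adjusted p = 0.0013). Oat and Cyp2e1 were also called when only mouse 7 or only mouse 8 was left out, at -0.36 and -0.34 for Oat and -0.42 and -0.40 for Cyp2e1. Slc1a2 was at 0.04 ± 0.16 and -0.15 ± 0.10 and was called in neither fit. Without the pair, 5 of the 10 genes were called in Fc mice, where 43.8% of all genes were (23.2% higher and 20.5% lower), 4 of the 5 lower and 1 higher.

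In Fc(mML1)B3 mice, the levels of Oat, Cyp2e1 and Slc1a2 did not pass with or without the pair (0.03, -0.27 and 0.20 in both fits), and Cyp1a2 was at -0.29 in both and was called in the fit without the pair (edgeR adjusted p = 0.019). That fit called 4 of the 10 genes in these mice, Glul and Cyp1a2 lower and Rnf43 and Znrf3 higher, where it called 40.2% of all genes, 21.3% higher and 18.9% lower.

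Znrf3 differed in the opposite direction from Glul and in both proteins. In Fc mice it ranged from 5.50 to 13.9 CPM (median 10.8) under the HFD and from 13.1 to 15.9 CPM (median 15.03) under the standard diet, with all 9 standard-diet mice above the HFD median. The log2 fold change was 0.48 ± 0.12 (edgeR adjusted p = 0.0010), and 0.37 ± 0.10 without mice 7 and 8 (adjusted p = 0.0023). In Fc(mML1)B3 mice it ranged from 7.69 to 13.8 CPM (median 9.68) and from 11.1 to 16.3 CPM (median 15.4), and the log2 fold change was 0.45 ± 0.13 (adjusted p = 0.0046).

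Lgr5 was higher under the standard diet in Fc mice, at 10.5 ± 1.52 CPM compared with 7.38 ± 1.96 CPM, with a log2 fold change of 0.50 ± 0.18 (edgeR adjusted p = 0.021). Without mice 7 and 8 it was 0.38 ± 0.17 and no longer called (adjusted p = 0.065). In Fc(mML1)B3 mice the difference was 0.19 ± 0.19, and the interaction of Lgr5 (-0.31 ± 0.27, adjusted p = 0.58) did not show a difference between the proteins.

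Rnf43 was higher under the standard diet in Fc(mML1)B3 mice, ranging from 13.7 to 26.9 CPM (median 19.2) under the HFD and from 21.0 to 35.2 CPM (median 26.3) under the standard diet, with all 7 above the HFD median. The log2 fold change was 0.55 ± 0.14 (edgeR adjusted p = 0.0014), compared with -0.09 ± 0.13 in Fc mice (adjusted p = 0.58), or -0.19 ± 0.12 there without mice 7 and 8. Rnf43 and Znrf3 were the 2 calls in Fc(mML1)B3 mice, where 38.5% of all genes were called, 20.7% higher and 17.9% lower, and no gene of the 10 separated the groups, compared with 9.90% of all genes. Without a replicate block, the edgeR test called Axin2 and Tbx3 in no comparison with all mice. Over the 4 comparisons of groups, the log2 fold changes of Axin2 ran from -0.19 to 0.23 and those of Tbx3 from -0.29 to 0.36. Leaving out mice 7 and 8 put Axin2 at 0.10 under the HFD and at -0.01 between the diets in Fc mice, and Tbx3 at 0.16 and -0.40, again without a call.

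The rest of the Wnt pathway is given against the share of all genes called between the diets, which was 47.9% in Fc mice and 38.5% in Fc(mML1)B3 mice. Of 9 ligands and secretion genes, 4 were lower and none higher under the standard diet in Fc mice, and 6 were lower in Fc(mML1)B3 mice. Rspo3 was at 11.9 ± 2.63 CPM under the HFD and 7.97 ± 0.66 CPM under the standard diet in Fc mice (log2 fold change -0.58, edgeR adjusted p = 2.3e-04) and at 10.0 ± 2.46 and 7.48 ± 1.21 CPM in Fc(mML1)B3 mice (-0.42, adjusted p = 0.011). Wls, which carries Wnt proteins to the cell surface, was lower by -0.59 and -0.49, and Wnt5b by -1.46 and -0.67. The levels of Wnt2 and Wnt9b were low, with group means from 2.53 to 3.55 CPM and from 1.25 to 1.59 CPM.

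Of 10 receptors, 6 were higher and 1 lower in Fc mice and 4 higher and 1 lower in Fc(mML1)B3 mice. Fzd4 was higher by 1.05 and 1.89, Lrp6 by 0.65 and 0.58, and Lgr4, the R-spondin receptor of broad expression, by 0.47 and 0.62. Of 16 intracellular components, 7 were higher and 1 lower with either protein, among them Apc (0.54 and 0.60) and Dvl3 (1.12 and 0.85). Of 7 Wnt inhibitors tested among 13 listed, 5 were lower in Fc mice, and 5 were lower and 1 higher in Fc(mML1)B3 mice. Dkk3 was at -0.74 in both. Without Fc mice 7 and 8, the inhibitors called in Fc mice were 2. Nkd1, a feedback target that is also an inhibitor, was lower by -0.46 and -0.49.

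The zonal lists were compared between the diets in the same way, where 23.3% of all genes were higher and 24.6% lower in Fc mice and 20.7% and 17.9% in Fc(mML1)B3 mice. Of 26 other pericentral genes, 9 were lower and 2 higher under the standard diet in Fc mice, and 7 lower and 3 higher in Fc(mML1)B3 mice, with medians of -0.16 and -0.13, beside -0.05 and -0.02 over all genes. When Fc mice 7 and 8 were left out, 12 were lower and 2 higher in Fc mice, with a median of -0.28, and 11 lower and 4 higher in Fc(mML1)B3 mice, with a median of -0.14. Lect2, a secreted hepatocyte protein, was lower by -0.86 and -0.80, whereas Cyp2c29 was higher by 1.63 and 1.64. Of 17 periportal genes, 8 and 9 were higher and none lower, with medians of 0.43 and 0.43, and without the pair 9 and 10 were higher. Cps1, the first enzyme of the urea cycle, was at 2409 ± 506 and 4154 ± 330.5 CPM in Fc mice (log2 fold change 0.79, edgeR adjusted p = 1.4e-07), and Cyp2f2 was higher by 0.95 and 0.93. Ass1, the 18th periportal gene, had at most 0.39 CPM in the Fc mice under the HFD and was not tested. Reads mapping to several places were left out, and whether reads of Ass1 were lost in this way was not tested. Its count is therefore not given as a level of its RNA. Of 11 general hepatocyte genes, 5 were higher and none lower in Fc mice (median 0.21). In Fc(mML1)B3 mice 3 were higher and 1 lower (median 0.05). Without the pair, 5 were higher and 1 lower in Fc mice (median 0.24). Their part in the zonal values was not tested. The 2 comparisons used separate mice, but both set the same 2 experiments side by side.

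Markers of other cell types also differed with the diet. In Fc mice, 7 of 10 stellate cell and fibroblast markers were lower under the standard diet, 4 of 8 macrophage markers and 3 of 7 cholangiocyte markers, and none of these lists had a higher call, where 24.6% of all genes were lower. These counts were 7, 3 and 2 without Fc mice 7 and 8. The summed level of the stellate cell and fibroblast markers ranged from 850.4 to 1575 CPM in Fc mice under the HFD and from 696 to 1064 CPM under the standard diet, and in Fc(mML1)B3 mice from 815 to 1774 CPM and from 590 to 792 CPM. The macrophage sum ranged from 597 to 1532 CPM and from 447 to 777 CPM in Fc mice, and from 593 to 1142 CPM and from 497 to 623 CPM in Fc(mML1)B3 mice. The cholangiocyte sum ranged from 185 to 880.5 CPM and from 248 to 518 CPM in Fc mice, and from 186 to 871 CPM and from 197 to 428 CPM in Fc(mML1)B3 mice. Of 6 central vein endothelial genes, 2 were lower in Fc mice and 5 in Fc(mML1)B3 mice, among them Thbd (-1.09 in the latter) and Kit (-0.42 and -0.53), with sums from 23.8 to 47.5 CPM and from 23.8 to 28.9 CPM in Fc mice. Of 8 general endothelial markers, 2 were higher and 1 lower in Fc mice. No marker of these lists was without reads in a group, and the part of these readings in the levels of the 10 genes was not tested.

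The 10 genes were last compared with each other across mice, on log2 CPM with the mean of each group removed. All 45 pairs were tested with Pearson's r and Spearman's rho, with p from 100000 permutations within groups, for which 1e-05 is the smallest value possible, and adjusted over the 45 pairs. Because mice 7 and 8 lay apart from all others for Glul, Slc1a2 and Cyp1a2, the values over the remaining 34 mice are given first. There, 7 pairs passed the threshold, all positive (8 by Spearman's rho), and the median r was 0.13. With all 36 mice, 30 pairs passed, all positive (17 by rho), and the median r was 0.45, so most of these pairs rested on 2 mice. Within groups, the median r was 0.77 in Fc mice under the HFD, which hold the pair, and 0.15, 0.33 and 0.00077 in the other groups.

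**Figure D4:**
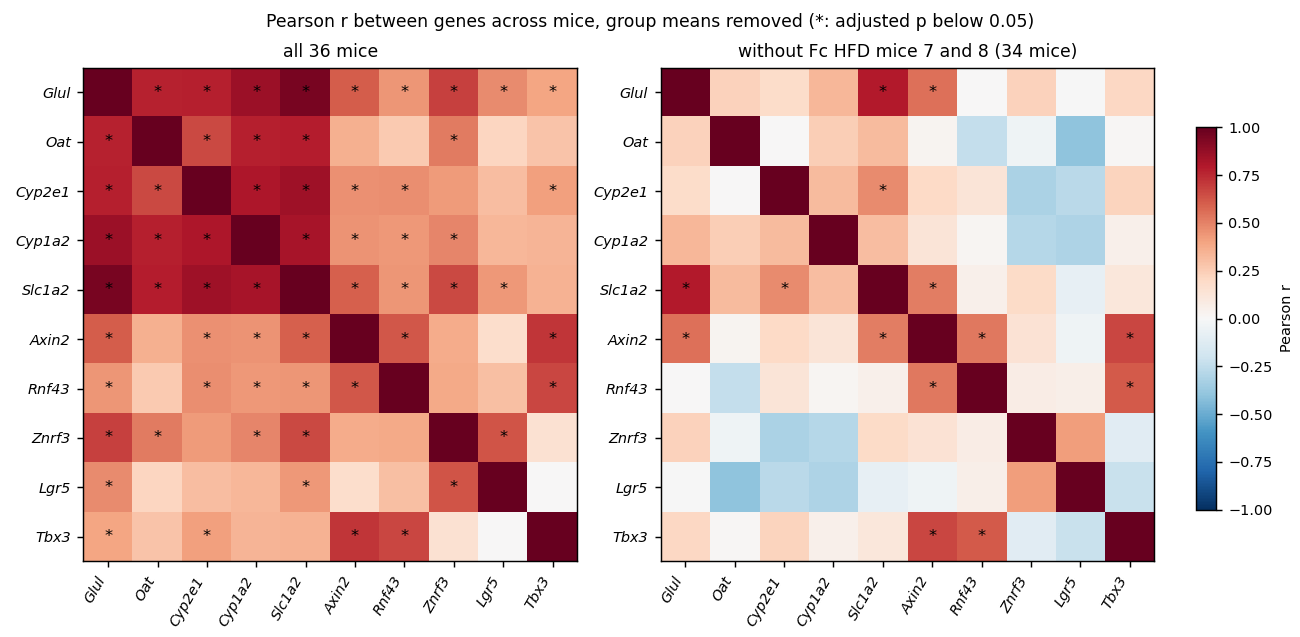
Pearson r of the 45 pairs among the 10 genes, on log2 CPM with group means removed, over all 36 mice (left) and over 34 mice without Fc mice 7 and 8 under the HFD (right). Red is positive and blue negative, and stars mark an adjusted permutation p below 0.05. The block of metabolic genes that is red on the left keeps 2 starred pairs on the right, Glul with Slc1a2 and Cyp2e1 with Slc1a2.

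Glul and Slc1a2, the synthetase and the transporter of the glutamate-to-glutamine step, were the pair with the highest r. Over 34 mice, r was 0.79 (adjusted permutation p = 4.5e-04) and rho was 0.71 (adjusted p = 9.0e-04), and r was 0.76 without the 2 further mice farthest from the Glul median. Over all 36 mice, r was 0.95. Within the groups r was 0.98, 0.73, 0.92 and 0.91 (HFD with Fc, HFD with Fc(mML1)B3, standard diet with Fc and standard diet with Fc(mML1)B3). The first of these values includes mice 7 and 8, and the other 8 Fc mice of that group gave an r of 0.58. With the mean of each file series removed, r over all 36 mice was 0.96. This value also includes mice 7 and 8. The file series were not removed from the 34 mice, so their part in the r of 0.79 was not tested.

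A second set of pairs joined Axin2, Rnf43 and Tbx3. Over 34 mice, Axin2 and Tbx3 had an r of 0.67 (adjusted permutation p = 0.00135) and a rho of 0.66, Rnf43 and Tbx3 an r of 0.61 (adjusted p = 0.0062) and a rho of 0.67, and Axin2 and Rnf43 an r of 0.53 (adjusted p = 0.016) and a rho of 0.54. Without the 2 mice farthest on the first gene of each pair, r was 0.65, 0.56 and 0.48. With the mean of each file series removed from all 36 mice, r was 0.71, 0.69 and 0.72. Axin2 was also related to Glul (r = 0.55, adjusted permutation p = 0.0075) and to Slc1a2 (r = 0.52, adjusted p = 0.016), and Cyp2e1 to Slc1a2 (r = 0.47, adjusted p = 0.016). Cyp2e1 and Cyp1a2 passed by rho alone (0.45), with an r of 0.32. Oat, Znrf3 and Lgr5 were in no pair that passed over the 34 mice, and the lowest r there was -0.41, between Oat and Lgr5.

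**Figure D5:**
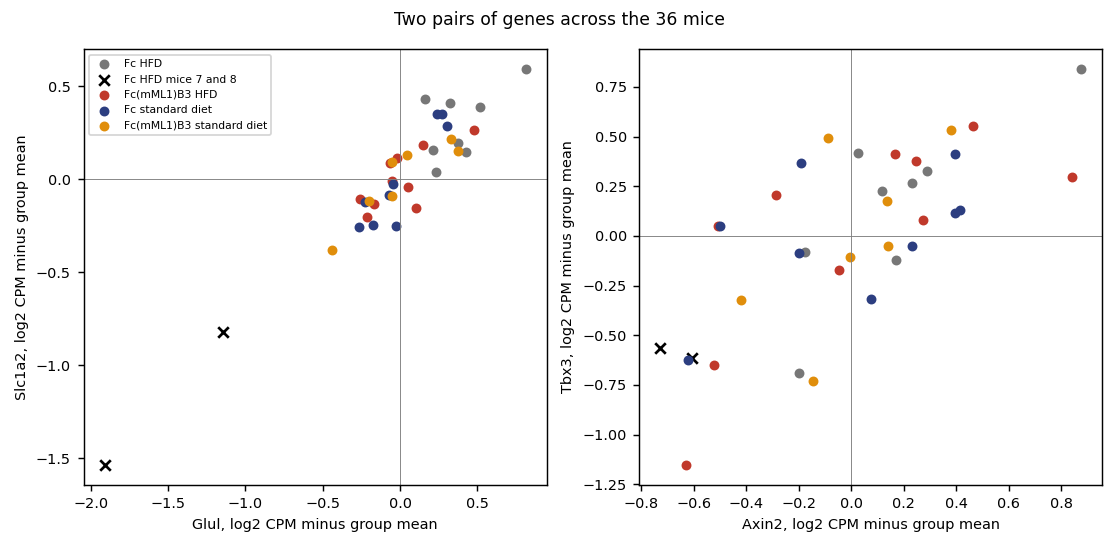
log2 CPM minus the group mean in each of the 36 mice for Slc1a2 against Glul (left) and Tbx3 against Axin2 (right), colored by group, with crosses for Fc mice 7 and 8 under the HFD. The crosses lie far from all other mice on the left and among them on the right, and both relations are seen in the remaining mice, with r of 0.79 and 0.67.

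The genes whose levels followed each of the 10 most closely were taken from all 14105 genes kept, as the 3 with the highest r over the 36 mice. Glul was followed by Slc1a2 (0.95), Gulo (0.91) and Rmdn2 (0.88), and Slc1a2 by Glul and by Rgn (0.87). Cyp2e1 was followed by AW549542 (0.93), Nr1i3 (0.90) and Pon1 (0.88), and Cyp1a2 by Nr1i3 (0.92), Cyp2c50 (0.89) and Akr1c6 (0.87). Oat was followed by Lhpp (0.88), Rgn (0.83) and Gulo (0.82). Several of these are themselves on the list of other pericentral genes. Without Fc mice 7 and 8 these values were lower, for example 0.54 for Glul with Gulo and 0.37 for Oat with Rgn, while AW549542 kept 0.81 with Cyp2e1 and Lhpp 0.75 with Oat.

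The feedback genes had other neighbors. Axin2 was followed by Gem, Tbx3 and Ildr2 (0.72 each), Tbx3 by Axin2 (0.72), Arrdc3 (0.70) and Rnf43 (0.67), and Rnf43 by Tbx3 (0.67), Zcchc14 (0.63) and Prkcz (0.62). Lgr5 was followed by Plekha5 (0.74), Bcl2l2 (0.74) and Nr2c2 (0.72), and Znrf3 by Snhg11 (0.73), Ednrb (0.70) and Col13a1 (0.69). Over the 34 mice, Snhg11 was at 0.40 and Col13a1 at 0.43 with Znrf3, and the other genes of this paragraph were between 0.50 and 0.68. These are rankings over 36 mice whose libraries differ in depth and come from separate experiments, and are given as a description.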

How the data were processed

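Liver RNA was sequenced in 36 mice as paired reads. The authors removed ribosomal RNA reads with Bowtie2 2.4.5, aligned with STAR 2.7.10a to mm10 and counted reads per gene with featureCounts (Subread 2.0.3) after fastp. The deposited counts are raw: per the file headers, both ends had to align, ends were counted singly, strand was ignored and reads mapping to several places were left out. Totals ran from 14949035 to 28466853 reads per library, and a fragment adds up to 2 reads, so counting error is understated.

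Here, groups came from the titles. Genes were filtered with filterByExpr and tested with edgeR 4.0.16 (R 4.3.3), quasi-likelihood F-test with TMM factors and Benjamini-Hochberg adjustment over all genes tested, at 0.05 without a limit on the fold. Each diet was fitted alone for the effect of the protein, and all 36 libraries together for the diets and the interaction. The SE is the log2 fold change over the root of F. Correlations used log2 CPM with a prior count of 2. Scripts were tested on simulated data. The 147 pairs of libraries within groups differed by more than sampling noise (chi-square per degree of freedom at least 6.305). Alternatives were DESeq2 1.42.0, limma-voom (limma 3.58.1), upper-quartile factors, no filter, the study's thresholds, a replicate block, other sets of mice and each mouse left out, and 2 were added after seeing the data (without Fc mice 7 and 8 under the HFD, and read pairs in place of reads).

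The 10 genes and the lists were chosen with earlier results of these data known. Genes named beside the 10 were at most 4 called genes per list and comparison with the smallest p, the 3 genes most like each of the 10, Arntl and Dbp, and those said to be chosen after their values were seen, which include the genes named for mice 7 and 8, Wnt2, Wnt9b and Ass1. A pair of genes that the rule would name is not reported here. Tf of the hepatocyte list was not found by that symbol. Nothing in the labels ties a mouse of one group to a mouse of another.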

Additional observations from a re-analysis of the deposited data

Results flagged for a closer look

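Of 40 checks for a single mouse far from its group (10 genes in 4 groups), 2 were positive, and chance flags about 1 in 20 groups. Glul was at 2813 CPM in Fc(mML1)B3 mouse 5 under the HFD, the highest of its group. Axin2 was at 13.5 CPM in Fc mouse 2 under the HFD, the highest of its group. Fc mice 7 and 8 under the HFD were not found by this check, which looks for 1 distant mouse and not for 2. The effect of Fc(mML1)B3 on Rnf43 differed between the 2 experiments, which differ in diet and schedule, by an interaction of 0.64 on the log2 scale (edgeR adjusted p = 0.023). This call was lost without Fc(mML1)B3 mouse 2 (adjusted p = 0.063) or mouse 4 (adjusted p = 0.059) of the standard diet.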

How the results depend on the processing

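None of the called log2 fold changes of the 10 genes changed sign under an alternative, but several uncalled ones did, and the cause was not tested. For the protein under the HFD, the sign turned without Fc mice 7 and 8 for Glul (-0.15) and Slc1a2 (-0.10), with the 4 Fc(mML1)B3 mice of 1 file series for Glul (-0.014) and Axin2 (-0.12), with the 6 of the other for Znrf3 (0.020) and Lgr5 (0.059), and with the replicate block for Oat (0.026). For the protein under the standard diet, Glul was at -0.012 against the 4 Fc mice of the same file series. For the diets in Fc mice, Slc1a2 was at -0.15 and Axin2 at -0.013 without the pair, and Slc1a2 at -0.013 with limma-voom and -0.048 with upper-quartile factors, which also put Oat at -0.053 in Fc(mML1)B3 mice. For the interaction, Cyp1a2 was at 0.10 and Znrf3 at 0.074 without the pair, Znrf3 at 0.013 with limma-voom, and Cyp2e1 at -0.10 and Tbx3 at -0.0091 with the replicate block. Leaving out single mice turned 27 further uncalled values. The ranges were then, for the protein under the HFD, -0.039 to 0.17 for Glul, -0.11 to 0.040 for Oat, -0.0093 to 0.16 for Slc1a2 and -0.12 to 0.0071 for Znrf3, for the diets -0.068 to 0.12 for Slc1a2 with Fc and -0.0027 to 0.089 for Oat with Fc(mML1)B3, and for the interaction -0.0061 to 0.22 for Glul, -0.020 to 0.15 for Cyp2e1, -0.18 to 0.0024 for Cyp1a2, -0.091 to 0.040 for Znrf3 and -0.024 to 0.19 for Tbx3. For the protein under the HFD (0 called), DESeq2, limma-voom, upper-quartile factors, 1 fit of 36 libraries and read pairs gave 1, leaving out Fc mice 7 and 8 gave 2, and leaving out single mice gave 0 to 1. Of all 13299 genes, DESeq2 called 2287, limma-voom 3039 and upper-quartile factors 1940. The 1 fit called 3133 of 14105, read pairs 1971 of 12427 and the fit without the 2 mice 1843 of 13474. For the protein under the standard diet (3 called), the study's thresholds, 1 fit of 36 libraries and the 4 Fc mice of the same file series gave 0, limma-voom gave 5, and leaving out single mice gave 1 to 4. Of all genes, limma-voom called 2401 of 13570, the 1 fit 785 of 14105 and the fit with 4 Fc mice 942 of 13735. For the diets in Fc mice (3 called), the study's thresholds gave 0, limma-voom, upper-quartile factors and leaving out Fc mice 7 and 8 each gave 5, and leaving out single mice gave 3 to 5. Of all 14105 genes, limma-voom called 6969 and upper-quartile factors 7318, and the fit without the 2 mice called 6158 of 14071. For the diets in Fc(mML1)B3 mice (2 called), the study's thresholds gave 0, DESeq2, limma-voom and upper-quartile factors 3, leaving out Fc mice 7 and 8 gave 4 and leaving out single mice 2 to 3. Of all 14105 genes, DESeq2 called 5699, limma-voom 5918 and upper-quartile factors 6007, and the fit without Fc mice 7 and 8 called 5655 of 14071. For the interaction (1 called), leaving out that pair gave 2, where 1413 of 14071 genes were called, and leaving out single mice 0 to 1. Of 30 correlated pairs, 7 were left without the pair of mice.

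Mouse numbers do not pair the samples, since same-numbered mice had correlations from -0.66 to 0.31 under the HFD (2 of 10 over 0.1) and from -0.17 to -0.019 under the standard diet (0 of 7), and no mouse correlated best with its own number. With the number as a replicate block, the 10 genes gave 0, 2, 2, 2 and 1 calls in the order above (under the standard diet Cyp2e1 at 0.27 and Cyp1a2 at 0.33 lost their calls and Tbx3 at 0.28 gained one, and between the diets in Fc mice Glul at -0.51 lost its call), and all genes 1294 calls in place of 1972 under the HFD and 1296 in place of 2186 under the standard diet. With the block, 6424 of 14105 genes were called for the diets in Fc mice, 5110 in Fc(mML1)B3 mice and 997 for the interaction. Over all genes, 1 fit of 36 libraries gave 3133 calls for the HFD and 785 for the standard diet, limma-voom gave 3039 under the HFD and 2026 in place of 1278 for the interaction, and the file series gave 705 (4 mice) for the HFD and 942 for the standard diet. Upper-quartile factors shifted the median log2 fold change of all genes to -0.13 for the diets in Fc mice and -0.11 in Fc(mML1)B3 mice. The split of higher and lower calls was then 2523 and 4795 in place of 3288 and 3471, and 2208 and 3799 in place of 2914 and 2520, and under the HFD 865 and 1075 in place of 1083 and 889. Depth limits Axin2, Lgr5 and Znrf3, with as few as 48 reads in a library.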
